A study of Mus musculus with 8 samples.

Results

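The genes examined here encode the SR proteins (serine- and arginine-rich splicing factors, symbols starting with Srsf), the proteins of the small nuclear ribonucleoprotein particles or snRNPs (Snrp), and the heterogeneous nuclear ribonucleoproteins or hnRNPs (Hnrnp). Members were taken by these symbol prefixes alone, without pseudogenes, from probe sets that carry 1 gene symbol. This gave 37 of the 22180 genes measured: 10 SR, 9 snRNP and 18 hnRNP genes. The 5 further symbols, Hnrnpa1, Hnrnph3, Snrpa, Snrpf and Snrpn, lay only on probe sets shared with other genes and have no value here, and Srsf7 was not analysed here.

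The mRNA of naive CD3+ T cells of C57BL/6J mice was measured on 8 Affymetrix Mouse Gene ST 2.0 arrays with 1 array per condition. The cells came from spleens and lymph nodes by negative selection, and the mice were in general 8 weeks old and sex-matched. Immobilized antibodies (iAb) were anti-CD3 and anti-CD28 bound to the plate, sAb were the same antibodies in solution followed by a secondary antibody, and sAb+LatA added latrunculin A (LatA), which depolymerizes actin, to sAb. Each of these stimuli has an array at 3 h and at 24 h, where cells had been washed after 3 h of stimulation and cultured on. The cells without antibody were treated with LatA alone (labelled as control for time, 3 h by the methods) or left untreated (naive). No condition has a replicate, so a difference between 2 arrays carries no error of its own and no p-value, and precision is limited by how few arrays there are.

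In splicing, the spliceosome removes introns from nuclear pre-mRNA. Its snRNPs each hold a small nuclear RNA, and a ring of Sm proteins surrounds the RNA of the U1, U2, U4 and U5 particles. SR proteins bind exonic sequences through an RNA recognition motif and recruit the spliceosome through their arginine- and serine-rich domain. The hnRNPs coat nuclear RNA and often act against exon inclusion, and in T cells Hnrnpll and Hnrnpl are known as regulators of the exon choice of Ptprc, which encodes CD45. The arrays report 1 summed level per gene and do not show which exons were used. Many SR genes also make transcripts with an exon that leads to decay, and these were not separated from coding transcripts.

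Promoters are shown for 3 SR genes that sit at opposite ends of the results below: Srsf1 and Srsf2, both higher after stimulation, and Srsf3, below its naive level on every antibody array. Each is the 250 bases before the RefSeq start on GRCm38.p6, 5′ to 3′ on the gene's strand, with CCAAT or its reverse complement ATTGG in capitals. They lie at chr11:88047123-88047372 on the plus strand (Srsf1), chr11:116853095-116853344 on the minus strand (Srsf2) and chr17:29032410-29032659 on the plus strand (Srsf3).
Srsf1: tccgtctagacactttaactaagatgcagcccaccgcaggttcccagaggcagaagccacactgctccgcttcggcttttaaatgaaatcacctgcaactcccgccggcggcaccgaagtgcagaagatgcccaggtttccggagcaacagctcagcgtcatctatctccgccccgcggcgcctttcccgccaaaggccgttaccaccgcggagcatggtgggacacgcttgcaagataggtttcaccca
Srsf2: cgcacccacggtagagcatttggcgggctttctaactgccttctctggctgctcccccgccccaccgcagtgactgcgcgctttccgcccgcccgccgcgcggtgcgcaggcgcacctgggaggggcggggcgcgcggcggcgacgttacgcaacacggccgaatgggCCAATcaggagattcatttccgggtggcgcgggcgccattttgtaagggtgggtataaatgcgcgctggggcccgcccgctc
Srsf3: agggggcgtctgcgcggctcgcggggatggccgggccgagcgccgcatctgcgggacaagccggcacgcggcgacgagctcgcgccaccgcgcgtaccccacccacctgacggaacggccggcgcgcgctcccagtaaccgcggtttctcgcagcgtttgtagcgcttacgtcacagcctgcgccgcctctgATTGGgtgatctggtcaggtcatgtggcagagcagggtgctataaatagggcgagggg
The Srsf1 window held 0 copies of this motif, and those of Srsf2 and Srsf3 held 1 each.

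Of the 37 members, 33 had such a window, and 4 motifs were searched on both strands, none of which contains another. CCAAT, the letters that NF-Y binds, stood in 17 of 33 windows (51.5%) against 37.5% of the windows of 27025 genes. CCGGAAG, a core of ETS factor sites, stood in 8 (24.2%) against 7.83% of all genes, namely Srsf4, Srsf5, Srsf11, Snrpb2, Snrpc, Snrpg, Hnrnpd and Hnrnpf. The median difference of iAb from naive at 3 h was 0.16 over these 8 genes and 0.38 over the other members with a window (log2). CACGTG, the E-box, stood in 3 (9.09%) against 6.86%, and a palindromic NRF1 site in 1 (3.03%) against 0.877%. These shares are descriptions of letters in a window and were not tested.

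Receptor genes for smell, taste and pheromones (1447) stood in for silent genes, and their 95th percentile, 4.70 to 4.99 in log2 across arrays, served as background. A comparison of 2 arrays used the genes that exceeded it on either, which all 37 members did each time, and 36 exceeded it on all 8 arrays. The exception was Srsf12, an SR-related gene at 4.82 to 5.25, which was below background with iAb at 3 h. Calls of higher or lower mean a difference of at least 1.5-fold (0.585 in log2). For a sense of noise, the receptor genes differed between 2 arrays with an SD of 0.29 to 0.36 in log2, at the dim end of the scale.

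Of 12 T cell marker genes 10 were measured, and all 10 were above background on every array, with a summed log2 level between 103.9 and 107.5. Single markers moved within that sum. With iAb at 24 h against naive, 2 of the 10 were higher (Cd8a 1.46, Cd8b1 0.65) and 2 lower (Cd4 −0.72, Cd28 −0.61). Of all genes 21.2% were higher and 12.9% lower in that comparison. Other cell types left some signal. Of 13 myeloid and dendritic cell markers measured, 9 were above background on each antibody array of 3 h (sums of 69.6 to 72.3) and 6 to 8 at 24 h (sums of 63.1 to 64.3), against 10 in naive T cells (sum of 79.0). The macrophage gene Csf1r was at 4.44 with iAb and 4.54 with sAb at 24 h, against 7.66 in naive T cells. Of 9 B cell markers, 2 to 6 were above background per array, with sums of 42.6 to 46.7. Of 7 NK cell markers 3 to 5 were above it (sums of 40.3 to 43.0), and of 5 erythroid and platelet markers 2 to 4 (sums of 23.5 to 26.3). The myeloid markers thus moved with stimulation and time in the same comparisons as the results below, and their part in those was not tested. In such bulk samples fewer cells of a type and less RNA per cell cannot be told apart.

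At 3 h, iAb gave the widest separation of splicing factor mRNAs from naive T cells. With iAb 10 of 37 members were at least 1.5-fold higher and 0 lower, where 15.0% of all genes were higher and 12.6% lower. With sAb+LatA 3 members were higher and 0 lower (10.4% and 8.78% of all genes), and with sAb 1 was higher and 0 lower (6.18% and 3.54%). The median difference of the members was 0.33 with iAb, 0.12 with sAb+LatA and 0.08 with sAb, against −0.03, −0.04 and 0.03 over all genes, and the sAb median turned to −0.04, against −0.09 over all genes, when each array was centred on its own median. Of all genes past 1.5-fold, 54.3%, 54.1% and 63.5% were on the higher side in the same order, and with centring 52.3%, 42.6% and 39.0%. With sAb+LatA, 5 members were higher after a renewed quantile normalization (11.5% of all genes) and 4 with the mean of probe sets (10.2%), so the members' share lay below that of all genes on the deposited values but above it under these settings.

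**Figure D1:**
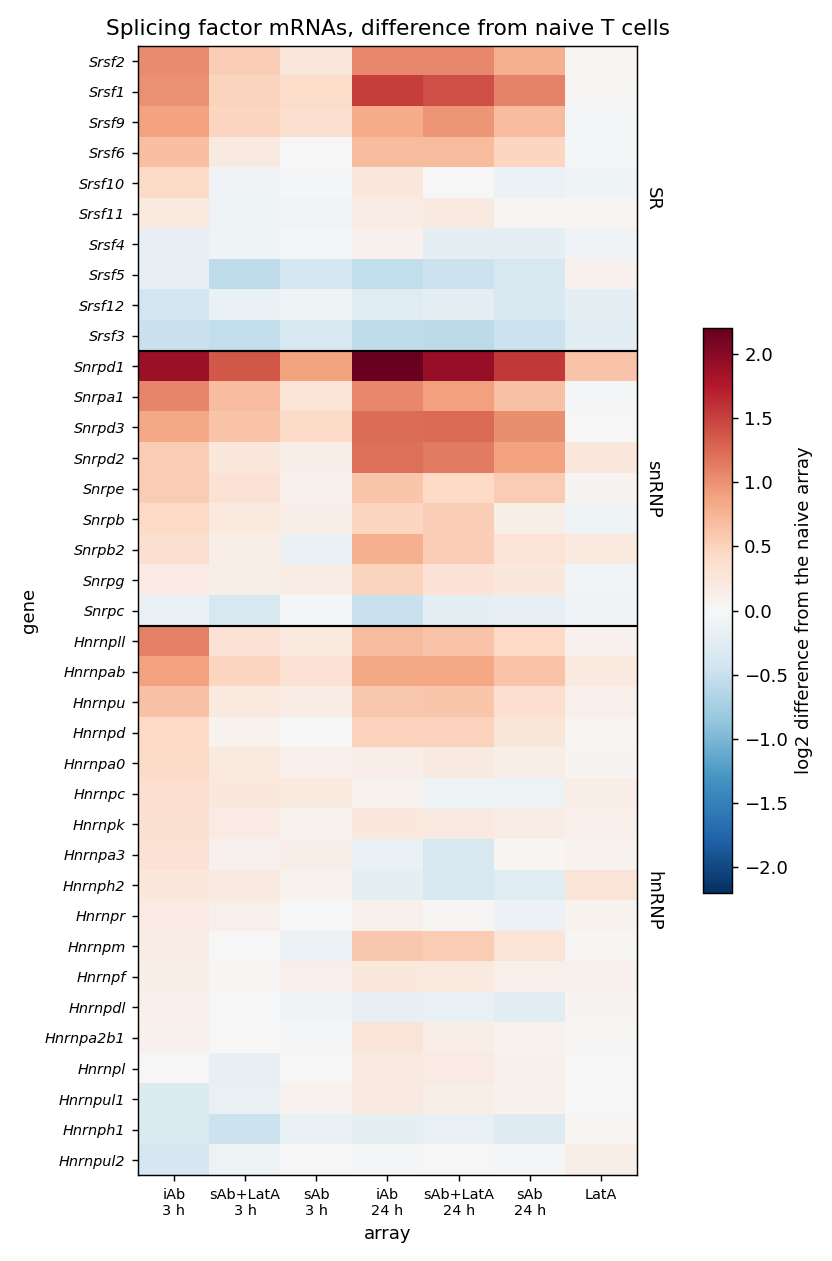
Log2 difference of each of the 37 splicing factor genes (rows, grouped by class and ordered by iAb at 3 h) from the naive array, for 7 arrays (columns), 1 array per condition. Red is higher and blue lower than in naive T cells. Snrpd1 has the deepest red on every antibody array, while Srsf3 and Srsf5 are blue on all 6 of them.

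The snRNP genes had the highest class median with iAb at 3 h, at 0.56, against 0.32 for SR and 0.21 for hnRNP genes. Snrpd1, which encodes the Sm ring protein D1, differed most from naive T cells of all members. Its log2 level was 8.49 at 3 h and 8.76 at 24 h with iAb, 7.96 and 8.50 with sAb+LatA, and 7.48 and 8.14 with sAb, against 7.22 with LatA alone and 6.59 in naive T cells. All 6 antibody arrays lay above both arrays without antibody, and at each time the order was iAb, sAb+LatA, sAb. The share of all genes with such a separation was not counted, for this gene or for those below. The difference of iAb from naive was 1.90 at 3 h (3.73-fold) and 2.17 at 24 h (4.49-fold).

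Snrpd1 also stood out in cells that had received no antibody. With LatA alone it was 0.63 above the naive array (1.55-fold), the only member past 1.5-fold in that comparison, where 0.918% of all genes were higher and 1.14% lower. Against the LatA array, its difference with sAb+LatA at 3 h was 0.74, about as far as Snrpa1 (0.71) and Snrpd3 (0.63). These 3 were the members higher than with LatA alone, and Srsf5 was the only one lower, at −0.65 (9.44% and 9.34% of all genes). When the mean of the probe sets of Snrpd1 was used, its LatA difference no longer reached 1.5-fold. Of all genes past 1.5-fold between LatA and naive, 44.5% were higher, and 34.2% with centring. For sAb+LatA against LatA the share was 50.3%, and 61.0% with renewed quantile normalization. The members' median there was 0.02, and −0.03 with centring.

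Snrpa1 encodes the A′ protein of the U2 snRNP, which marks the branch point. Its level was 9.48 and 9.46 with iAb at 3 h and 24 h, 9.08 and 9.30 with sAb+LatA, and 8.70 and 9.04 with sAb, against 8.37 with LatA alone and 8.40 in naive T cells. Every antibody array was above both arrays without antibody, a separation whose share over all genes was not counted. With iAb the full difference was there by 3 h. Its U2 partner Snrpb2, which encodes its B″ protein, was at 7.31 and 7.74 with iAb, 7.10 and 7.50 with sAb+LatA and 6.81 and 7.27 with sAb, against 7.18 with LatA alone and 6.96 in naive T cells. On that gene the 3 h arrays straddled the naive value.

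The Sm genes Snrpd2 and Snrpd3 were higher at 24 h than at 3 h under each stimulus. Snrpd3 was at 10.41 and 10.79 with iAb at 3 h and 24 h, 10.18 and 10.80 with sAb+LatA, and 9.98 and 10.59 with sAb, against 9.56 on both arrays without antibody. Snrpd2 was at 8.36 and 9.01 with iAb, 8.03 and 8.94 with sAb+LatA, and 7.92 and 8.68 with sAb, against 8.04 with LatA alone and 7.80 in naive T cells. Over the 6 Sm genes measured (Snrpb, Snrpd1, Snrpd2, Snrpd3, Snrpe and Snrpg), the median difference from naive at 24 h was 0.91 with iAb, 0.85 with sAb+LatA and 0.72 with sAb, with 4, 3 and 3 genes at least 1.5-fold higher and 0 lower. Of all genes 21.2%, 19.6% and 17.2% were higher and 12.9%, 11.8% and 8.83% lower in these comparisons. The 4 with iAb included Snrpe, at 8.26 against 7.65 in naive T cells. Snrpb and Snrpg stayed short of 1.5-fold from the naive array at both times.

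Snrpc, which encodes the C protein of U1, the particle that reads the 5′ splice site, was not higher than naive on any antibody array. It was at 7.12 and 6.80 with iAb at 3 h and 24 h, 6.93 and 7.08 with sAb+LatA and 7.25 and 7.10 with sAb, against 7.20 with LatA alone and 7.28 in naive T cells. It was the only snRNP gene below naive on all 6 antibody arrays, by 0.03 to 0.48, and no difference reached 1.5-fold until arrays were centred, when iAb at 24 h gave −0.73.

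Of the SR genes, 4 were higher and 0 lower with iAb at 3 h, where 15.0% of all genes were higher and 12.6% lower. These were Srsf1, Srsf2, Srsf6 and Srsf9, and the other 6 were not past 1.5-fold from naive T cells in either direction. Srsf1, which activates exon inclusion, was at 10.22 and 10.74 with iAb at 3 h and 24 h, 9.71 and 10.64 with sAb+LatA and 9.62 and 10.31 with sAb, against 9.24 with LatA alone and 9.21 in naive T cells. All antibody arrays were above those without antibody, and each 24 h array was above every 3 h array. The shares of all genes with these separations were not counted. At 24 h the difference of iAb from naive was 1.53 (2.88-fold).

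Srsf2 (SC35, also an exon activator) reached its iAb level by 3 h. It was at 11.95 and 11.96 with iAb at 3 h and 24 h, 11.44 and 11.96 with sAb+LatA and 11.15 and 11.69 with sAb, against 10.95 with LatA alone and 10.90 in naive T cells. Srsf9 (9.01 and 8.92 with iAb against 8.12 in naive T cells) and Srsf6 (9.77 and 9.80 against 9.11) had a similar level at both times with iAb. For both, the sAb arrays were higher at 24 h than at 3 h, at 8.82 against 8.46 for Srsf9 and 9.58 against 9.10 for Srsf6.

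Srsf3 and Srsf5 lay below their naive level on all 6 antibody arrays, by less than 1.5-fold. Srsf3, an SR protein that also serves mRNA export, was at 8.31 and 8.23 with iAb at 3 h and 24 h, 8.26 and 8.22 with sAb+LatA and 8.45 and 8.32 with sAb, against 8.56 with LatA alone and 8.80 in naive T cells. Srsf5 was at 10.56 and 10.20 with iAb, 10.18 and 10.27 with sAb+LatA and 10.35 and 10.38 with sAb, against 10.83 with LatA alone and 10.75 in naive T cells. For neither gene did an antibody array overlap those without antibody, though the share of all genes separated in this way was not counted. No difference from naive reached 1.5-fold on the deposited scale. With centring, both were past it with sAb+LatA at 3 h (Srsf3 −0.62, Srsf5 −0.64) and with iAb at 24 h (Srsf3 −0.81, Srsf5 −0.79). Both were also past it with sAb+LatA at 24 h (Srsf3 −0.78, Srsf5 −0.68), and Srsf3 alone with sAb at 24 h (−0.69). Of all genes 11.5%, 24.4%, 19.7% and 17.4% were lower with centring in these comparisons, in that order. Srsf4, Srsf10, Srsf11 and Srsf12 stayed within 0.43 of the naive array throughout.

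**Figure D2:**
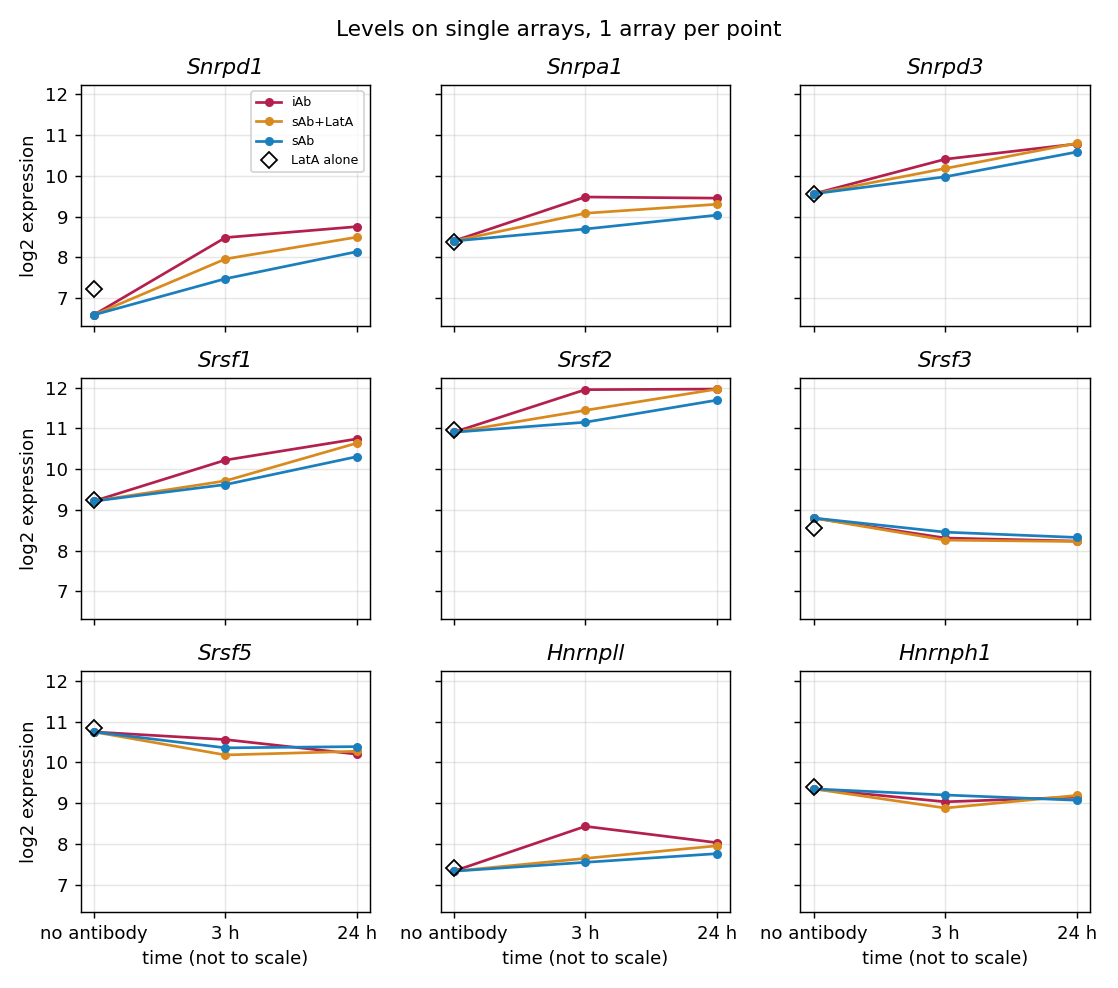
Log2 expression (vertical axis) of 9 splicing factor genes without antibody, at 3 h and at 24 h (horizontal axis, not to scale), 1 array per point; lines join the naive array to the iAb, sAb+LatA and sAb arrays, and the diamond is LatA alone. Snrpd1 is at 8.76 with iAb at 24 h, against 6.59 in naive T cells, Srsf3 and Srsf5 lie below the naive value on all antibody arrays, and Hnrnpll peaks with iAb at 3 h (8.43).

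Among the hnRNP genes, Hnrnpll differed most from naive T cells with iAb at 3 h. It was at 8.43 and 8.03 with iAb at 3 h and 24 h, 7.64 and 7.95 with sAb+LatA and 7.55 and 7.76 with sAb, against 7.42 with LatA alone and 7.33 in naive T cells. The iAb array of 3 h was the highest of all 8, at 1.10 above naive (2.14-fold), and iAb alone was lower at 24 h than at 3 h. Hnrnpl, its relative, was at 10.39 and 10.61 with iAb, 10.22 and 10.58 with sAb+LatA and 10.40 and 10.50 with sAb, against 10.40 both with LatA alone and in naive T cells. Its whole range over the 8 arrays was 0.39.

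Hnrnpab and Hnrnpu were the other hnRNP genes past 1.5-fold with iAb at 3 h. With Hnrnpll they made 3 of 18 (16.7%), close to the 15.0% of all genes that were higher. Hnrnpab was at 12.10 and 12.08 with iAb at 3 h and 24 h, 11.68 and 12.07 with sAb+LatA and 11.53 and 11.86 with sAb, against 11.44 with LatA alone and 11.22 in naive T cells. Hnrnpu, known as scaffold attachment factor A, was at 11.85 and 11.79 with iAb, 11.41 and 11.81 with sAb+LatA and 11.37 and 11.57 with sAb, against 11.31 with LatA alone and 11.20 in naive T cells. Both were lowest in naive T cells. Hnrnpm joined them with iAb at 24 h, at 10.97 against 10.38 in naive T cells, after 10.54 at 3 h.

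Below their naive level with iAb at 3 h were Hnrnpul2 (9.64 against 10.00 in naive T cells), Hnrnph1 (9.03 against 9.35), which binds runs of G, and Hnrnpul1 (10.17 against 10.46). None reached 1.5-fold, though Hnrnph1 lay further down on all 6 antibody arrays (8.88 to 9.20) than on the 2 without antibody (9.35 and 9.39). The share of all genes separated in this way was not counted. Hnrnpul1 and Hnrnpul2 were back at 10.66 and 9.96 at 24 h. The remaining 10 hnRNP genes, among them Hnrnpa2b1, Hnrnpc, Hnrnpd and Hnrnpk, lay within 0.52 of the naive array on every array.

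At 24 h more members were past 1.5-fold than at 3 h with each stimulus on the deposited values. With iAb 14 of 37 were higher and 0 lower (21.2% and 12.9% of all genes), with sAb+LatA 11 higher and 0 lower (19.6% and 11.8%), and with sAb 8 higher and 0 lower (17.2% and 8.83%). The sAb share was thus close to that of all genes. The 14 members with iAb were 6 snRNP, 4 SR and 4 hnRNP genes, and the hnRNP share (22.2%) was close to the 21.2% of all genes. The median over all members was 0.24 with iAb, 0.20 with sAb+LatA and 0.12 with sAb, against 0.01, 0.03 and 0.03 over all genes. With arrays centred the members' medians turned to −0.01, −0.01 and −0.09, while those of all genes were −0.24, −0.18 and −0.18, since centring shifts all genes of a comparison alike. Centring takes 0.13 from the iAb array, 0.10 from the sAb+LatA array and 0.10 from the sAb array of 24 h and −0.11 from the naive array. It left 7 members higher with iAb (Snrpd1, Srsf1, Snrpd3, Snrpd2, Srsf2, Snrpa1 and Hnrnpab) and 3 lower (Srsf3, Srsf5 and Snrpc), where 14.7% of all genes were higher and 24.4% lower. With centring more members were higher with iAb at 3 h than at 24 h, so the larger count at 24 h did not hold for iAb. The share of all genes past 1.5-fold that were higher was 62.1%, 62.5% and 66.0% with iAb, sAb+LatA and sAb, and 37.6%, 41.1% and 39.3% with centring.

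**Figure D3:**
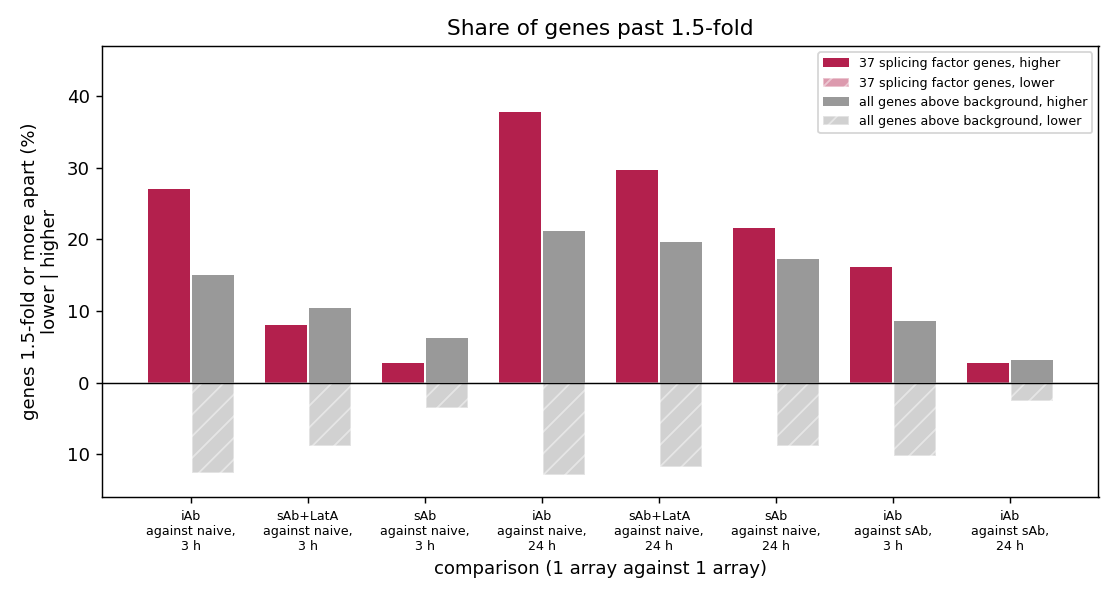
Percent of genes at least 1.5-fold higher (upward bars) or lower (downward bars) in 8 comparisons of 1 array with 1 array, for the 37 splicing factor genes (red) and all genes above background (grey). No member was 1.5-fold lower in any of these on the deposited scale, so no downward red bar appears; with centred arrays, not drawn, 7 members were higher and 3 lower with iAb at 24 h, where 14.7% of all genes were higher and 24.4% lower.

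The comparison of iAb with sAb asks how stimulation on a plate differs from stimulation in solution. At 3 h, 6 of 37 members were at least 1.5-fold higher with iAb than with sAb and 0 lower, where 8.64% of all genes were higher and 10.2% lower. They were Snrpd1 (1.01), Hnrnpll (0.88), Srsf2 (0.80), Snrpa1 (0.79), Srsf6 (0.67) and Srsf1 (0.60), in log2. The lowest were Hnrnpul2 (−0.37), Hnrnpul1 (−0.37), Srsf12 (−0.33) and Hnrnph1 (−0.17). The median over the members was 0.28, and −0.02 over all genes, with 29 of 37 members above 0, against 48.0% of all genes. Of all genes past 1.5-fold, 45.8% were higher with iAb, and 61.2% with centring, where the members' median was 0.38.

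At 24 h only Snrpd1 was past 1.5-fold between iAb and sAb (0.61), where 3.21% of all genes were higher and 2.59% lower. The members' median was 0.20 against 0.01 over all genes, and 33 of 37 members were above 0, against 52.0% of all genes. The next were Snrpb2 (0.47), Srsf1 (0.44) and Snrpa1 (0.42), and the lowest were Snrpc (−0.30), Srsf5 (−0.19), Hnrnpa3 (−0.18) and Srsf3 (−0.09). Snrpd1 fell short of 1.5-fold with centring and with the mean of its probe sets.

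**Figure D4:**
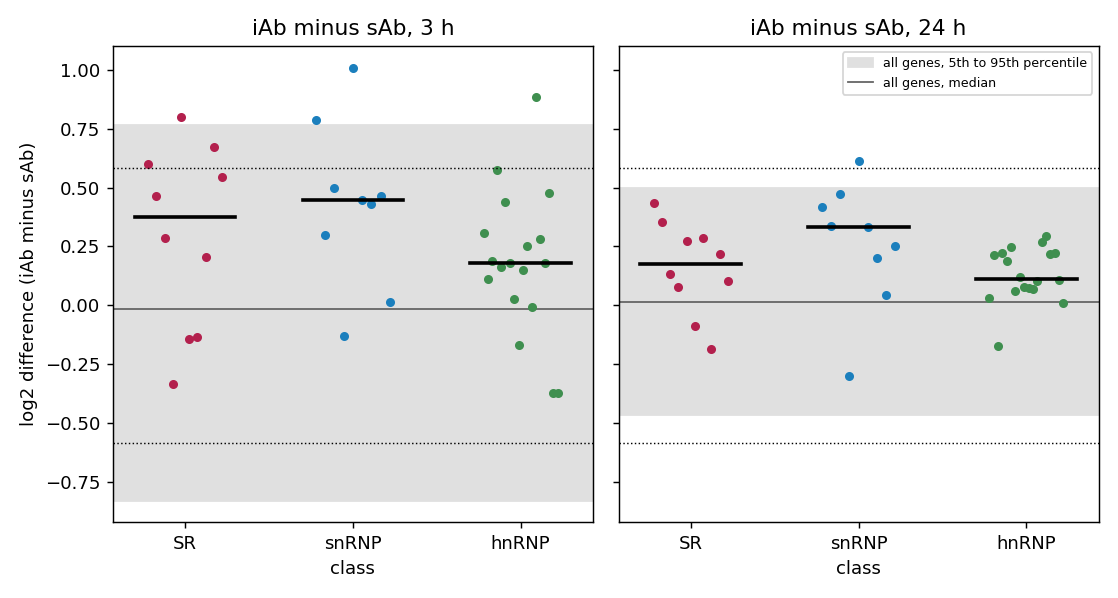
Log2 difference of iAb minus sAb (vertical axis) for each SR, snRNP and hnRNP gene (points) at 3 h (left) and 24 h (right), with class medians (bars), the 1.5-fold limits (dotted) and, in grey, the 5th to 95th percentile and median of all genes. At 3 h the class medians were 0.38, 0.45 and 0.18, and at 24 h 0.17, 0.33 and 0.11.

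Adding LatA to sAb moved the members less. Between sAb+LatA and sAb 0 of 37 members were 1.5-fold apart at either time, where 2.45% of all genes were higher and 3.39% lower at 3 h and 1.82% and 1.94% at 24 h. The member median was 0.06 at 3 h and 0.12 at 24 h, and Snrpd1 had the highest difference at 3 h (0.48), followed by Snrpa1 (0.39), Snrpb2 (0.29) and Srsf2 (0.29). The lowest were Snrpc and Hnrnph1 (both −0.32), Hnrnpul1 (−0.25) and Srsf3 (−0.20). The share of all genes past 1.5-fold that were higher was 41.9% at 3 h, 53.3% with centring and 59.0% with renewed quantile normalization. Between iAb and sAb+LatA, only Hnrnpll was past 1.5-fold at 3 h (0.79, where 4.25% of all genes were higher and 4.49% lower), and 0 members were at 24 h (0.962% and 1.06%). The members' median in that comparison was 0.21 at 3 h and 0.03 at 24 h, the second turning to −0.01 with centring. Of all genes past 1.5-fold there, 48.6% were higher at 3 h (62.6% with centring, 35.2% with renewed quantile normalization) and 47.7% at 24 h (32.2% and 58.2%).

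The array with the highest value among those of 3 h was iAb for 29 of 37 members, sAb for 8 and sAb+LatA for 0. Of 12756 genes, 40.0%, 41.4% and 18.6% were highest on these arrays in that order. At 24 h the lowest of the 3 arrays was sAb for 30 of 37 members, where it was the lowest for 39.8% of 12905 genes. The highest at 24 h was iAb for 22 members, sAb+LatA for 11 and sAb for 4, against 35.8%, 29.0% and 35.2% of all genes. The sAb+LatA count was thus close to the share of all genes.

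Between 24 h and 3 h of the same stimulus, 4 members were at least 1.5-fold higher with sAb (Snrpd2, Srsf1, Snrpd1 and Snrpd3), 3 with sAb+LatA (Srsf1, Snrpd2 and Snrpd3) and 1 with iAb (Snrpd2), and 0 were lower. The shares of all genes were 9.45% higher and 5.61% lower with sAb, 13.1% and 7.38% with sAb+LatA, and 16.1% and 9.48% with iAb. The members' medians were 0.09, 0.22 and 0.02 in that order, against 0.02, 0.08 and 0.03 over all genes. With centring they were less than 0.01 below 0 for sAb, 0.09 for sAb+LatA and −0.21 for iAb, against −0.07, −0.05 and −0.20. Of all genes past 1.5-fold, 62.8%, 64.0% and 62.9% were higher at 24 h, and 48.6%, 44.6% and 35.6% with centring.

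An additive model of stimulus and time over the 6 antibody arrays was fitted with 2 residual degrees of freedom, and it takes the effect of time as equal for each stimulus. In limma with Benjamini-Hochberg adjustment over 13288 genes, 6 members rose and 1 fell at 24 h relative to 3 h at an adjusted p under 0.05, where 13.2% of all genes rose and 7.30% fell. Snrpd2 rose by 0.77 (SE 0.12, limma adjusted p = 0.00796), Srsf1 by 0.71 (SE 0.13, adjusted p = 0.0136), Snrpd3 by 0.53 (SE 0.12, adjusted p = 0.0258) and Hnrnpm by 0.47 (SE 0.11, adjusted p = 0.0325). Snrpd1 and Snrpb2 rose by 0.49 and 0.43 (limma adjusted p = 0.0419 and 0.0382), and Hnrnph2, a G-run binding protein, fell by 0.44 (limma adjusted p = 0.0418). The other probe set of Hnrnph2 was also lower at 24 h than at 3 h with each stimulus. That probe set was at 6.53 against 6.93 with sAb, 6.80 against 7.21 with sAb+LatA and 7.22 against 7.40 with iAb. Against naive with iAb at 24 h the 2 probe sets disagreed in direction (−0.19 in use, 0.27 for the other). Of the 6 that rose, 4 are snRNP genes. At an unadjusted p under 0.05, 7 members were higher and 3 lower at 24 h, where 20.8% of all genes were higher and 13.2% lower. Without the sAb+LatA arrays 0 members rose and 0 fell, where 4.42% of all genes rose and 2.16% fell. Without the sAb arrays 2 members rose and 0 fell (11.7% and 6.55% of all genes), and without the iAb arrays 7 rose and 0 fell (11.6% and 6.51%). With centring 2 rose and 2 fell (8.96% and 12.5%).

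The same fit gave 0 members and 0 genes past the adjusted threshold for iAb against sAb, with a smallest limma adjusted p of 0.257. At an unadjusted p under 0.05, 10 members were higher with iAb and 0 lower, where 8.09% of all genes were higher and 7.83% lower. The largest effect among them was Snrpd1 at 0.81 (SE 0.16). For sAb+LatA against sAb, 0 members and 0 genes passed (smallest limma adjusted p 0.798), and at an unadjusted p under 0.05 1 member, Snrpd1, was higher and 0 lower, where 2.11% of all genes were higher and 3.42% lower.

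Genes that work with these proteins were taken from lists written from general knowledge. Genes on the list for snRNP assembly and Sm protein methylation were mostly higher. The list also held Ncbp1, Ncbp2, Tgs1, Snupn and Coil, which neither assemble the Sm ring nor methylate Sm proteins. Of 14 list genes above background in iAb against naive at 3 h, 12 were at least 1.5-fold higher and 0 lower. Their median was 0.87, and of all genes 15.0% were higher and 12.6% lower. With sAb+LatA 7 of 14 were higher (10.4% of all genes higher and 8.78% lower) and with sAb 2 of 15 (6.18% and 3.54%). At 24 h 13 of 15 were higher with iAb (21.2% and 12.9%), again with 0 lower in each. Gemin5, which recognizes the small nuclear RNA for the SMN complex, was at 8.99 with iAb, 8.53 with sAb+LatA and 8.04 with sAb at 3 h, against 7.17 with LatA alone and 7.13 in naive T cells. At 24 h it was at 8.85, 9.00 and 8.69 in the same order. Gemin6 was at 6.45 with iAb against 5.06 in naive T cells at 3 h (1.39 apart). The lowest differences with iAb at 3 h were those of Gemin7 (6.43 against 6.19) and Coil (5.14 against 4.56), neither past 1.5-fold. In limma 3 of 15 list genes rose between 3 h and 24 h and 0 fell at an adjusted p under 0.05 (13.2% and 7.30% of all genes), with 0 for both comparisons of stimuli.

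SR protein kinases, SR-related proteins and the importer of SR proteins held no higher share of calls than all genes at 3 h. Of 20 genes, 1 was higher and 2 were lower than naive with iAb at 3 h, and 3 were higher and 3 lower at 24 h, against 15.0% and 12.6% of all genes at 3 h and 21.2% and 12.9% at 24 h. Clk1, a kinase that phosphorylates SR proteins in the nucleus, was at 8.78 and 8.53 with iAb at 3 h and 24 h, 9.00 and 8.52 with sAb+LatA and 9.48 and 9.14 with sAb, against 10.20 with LatA alone and 10.01 in naive T cells. Srpk2, which phosphorylates SR proteins in the cytoplasm, was at 8.29 and 8.69 with iAb, 8.75 and 8.65 with sAb+LatA and 9.16 and 8.81 with sAb, against 9.53 with LatA alone and 9.49 in naive T cells. Neither kinase overlapped between arrays with and without antibody, a separation whose share over all genes was not counted. Tra2a, an SR-like splicing activator, was at 9.44 and 9.59 with iAb against 8.59 in naive T cells, and Rnps1, of the exon junction complex, at 9.80 and 9.89 against 9.24. In limma 1 of 20 rose and 0 fell with time at an adjusted p under 0.05, against 13.2% and 7.30% of all genes.

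Of 65 other spliceosome subunits and helicases above background, 18 were higher and 3 lower than naive with iAb at 3 h (median 0.20), and 22 of 66 higher and 3 lower at 24 h (median 0.35), where the shares of all genes were again 15.0% and 12.6% at 3 h and 21.2% and 12.9% at 24 h. Prpf31, of the U4/U6 particle, was at 9.43 with iAb against 8.34 at 3 h, and Ppie at 7.25 against 6.17. The lowest were Syf2 (8.72 against 9.84) and Lsm8 (7.79 against 8.70), a subunit of the ring on U6 RNA. In limma 11 of 66 rose and 1 fell with time at an adjusted p under 0.05, against 13.2% and 7.30% of all genes. Of 37 other RNA-binding splicing regulators, 6 were higher and 2 lower with iAb at 3 h (median 0.14), a share of higher genes close to the 15.0% of all genes. Fubp1 was at 10.54 with iAb against 9.01 in naive T cells and Syncrip, a relative of Hnrnpr, at 10.38 against 9.25, while Cirbp, a cold-inducible RNA-binding protein, was at 7.04 against 8.13 and Rbm5 at 8.93 against 9.74. In limma 6 of 38 rose and 1 fell with time at an adjusted p under 0.05, close to the 13.2% of all genes that rose.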

How the data were processed

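The authors scanned 8 Affymetrix Mouse Gene ST 2.0 arrays and normalized them by the robust multi-average method. In the deposited series matrix each probe set has a log2 value per array, the log2 scale being read from the values (1.20 to 14.3, array medians 4.74 to 4.94) since the methods do not state it. Of 41345 probe sets, 23521 had 1 symbol, 1820 several and 16004 none. The single-symbol probe sets gave 22180 genes, taking the one with the highest mean over the arrays where a gene had several (9 members), and all 37 members were found by gene number in RefSeq. No arrays were identical (0 pairs). Values were not normalized again for the report.

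Differences between log2 values of 2 arrays were counted past 1.5-fold, and the additive fit used limma 3.58.1 in R 4.3.3 (4 coefficients, prior degrees of freedom 4.24) at a Benjamini-Hochberg adjusted p of 0.05. Both steps were run on simulated data with known changes. The noise simulated for the counts was smaller than that of the receptor genes between arrays. No effect of stimulus was simulated for the fit, so its assumption of an equal time effect was not checked. The members and all gene lists were chosen with earlier results of these data known. Genes named with values were, in the main comparisons, the 4 members furthest up and the 4 furthest down, genes of known role, the extremes of each class by mean level, and the 2 highest and 2 lowest of each other splicing list. Srsf4, Srsf6, Srsf10, Srsf11, Snrpe, Hnrnph2 and Hnrnpm, and genes named without array values, were added after their values were seen. Promoter windows came from RefSeq (GRCm38.p6), and features of the proteins were not analysed here. Alternatives were other filters, median centring, renewed quantile normalization, the mean of probe sets, a 2-fold threshold, an intensity trend, arrays left out and another reference. Python 3.11.15, numpy 2.4.6, pandas 2.3.3 and matplotlib 3.10.9 were used.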

Additional observations from a re-analysis of the deposited data

Results flagged for a closer look

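Of 9 members with several probe sets, the brightest was used, and the other probe sets of 4 genes also lay well above the naive array with iAb at 24 h. The second probe set of Snrpd1 was 1.84 higher with iAb at 24 h than in naive T cells on the log2 scale (7.68 against 5.85), and 6.37 with LatA alone. That of Srsf1 was 1.75 higher (8.22 against 6.47), that of Srsf6 1.14 higher (6.63 against 5.49) and that of Hnrnpd 1.04 higher (7.84 against 6.80). For Srsf1, Srsf6 and Hnrnpd this exceeded the difference of the probe set in use (1.53, 0.69 and 0.52). The second probe set of Hnrnpu ran the other way at 24 h, with 8.13 with iAb against 8.24 in naive T cells. The 2 probe sets of Hnrnph2 also disagreed there, at −0.19 for the one in use and 0.27 for the other (iAb minus naive).

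Hnrnpll moved in opposite directions with time under different stimuli. Between 24 h and 3 h its difference was −0.40 with iAb, against 0.31 with sAb+LatA and 0.21 with sAb. Each is 1 array against 1 array, and this difference between stimuli was not tested.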

How the results depend on the processing

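No paired analysis was possible because each condition has 1 array and the labels give no replicate numbers, though the additive fit does compare 24 h with 3 h within each stimulus. Of 331 values under other settings, 277 kept their direction and stayed within 1.5 times (counts) or 0.1 (medians, log2), and requiring both arrays above background moved none of its 51 values.

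With a 2-fold threshold, 5 members were higher than in naive T cells with iAb at 3 h (7.20% of all genes). With sAb+LatA at 3 h 1 was higher (3.99%), and with sAb 0 were (1.65%). At 24 h 6 were higher with iAb (1379 of 12522 genes), 5 with sAb+LatA (9.58%) and 3 with sAb (7.19%). With LatA alone 0 were higher (0.0918%). The members' share with sAb+LatA at 3 h was thus below that of all genes, and with sAb at 24 h close to it. The 2-fold threshold gave 0 higher and 0 lower for sAb+LatA against LatA (3.48% and 2.56% of all genes). For iAb against sAb 1 was higher at 3 h (2.57%) and 0 at 24 h (0.467%). For iAb against sAb+LatA at 3 h 0 were higher (0.734%). For 24 h against 3 h 0 were higher with sAb (3.21%), sAb+LatA (4.80%) or iAb (7.33%).

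Median centring turned the member medians against naive T cells to −0.0397 with sAb at 3 h and to −0.0068, −0.0077 and −0.0889 with iAb, sAb+LatA and sAb at 24 h. It turned those of sAb+LatA against LatA at 3 h to −0.0276, of iAb against sAb+LatA at 24 h to −0.0071, and of 24 h against 3 h to −0.0021 with sAb and −0.2055 with iAb. The median was 0.086 for 24 h against 3 h with sAb+LatA and 0.3838 for iAb against sAb at 3 h. Counts with centring, with the shares of all genes in brackets, were 2 lower with sAb+LatA at 3 h against naive (11.5%). At 24 h against naive 7 were higher and 3 lower with iAb (14.7% and 24.4%), and 2 lower with sAb+LatA (19.7%). With sAb at 24 h 4 were higher and 1 lower (11.3% and 17.4%). The counts were 0 for iAb against sAb at 24 h (2.74% higher and 3.05% lower). For 24 h against 3 h they were 0 higher and 4 lower with iAb (10.4% and 18.8%), 1 lower with sAb+LatA (11.3%) and 2 higher with sAb (7.34%). The additive fit with centring gave 2 higher and 2 lower with time (8.96% and 12.5%). The difference between array medians is by construction the shift that centring removes.

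A renewed quantile normalization gave 5 higher with sAb+LatA at 3 h against naive (11.5% of all genes). It gave 1 lower with iAb (12.4%) and 1 lower with sAb+LatA (11.8%) at 24 h against naive. The mean of probe sets gave 0 higher for LatA against naive (0.869% of all genes), 0 for iAb against sAb at 24 h (3.21%) and 3 for 24 h against 3 h with iAb (16.0%). The mean of the naive and LatA arrays as the reference was chosen after seeing the data. It gave 0 higher with sAb (5.37% of all genes) and 1 lower with sAb+LatA (8.13%) at 3 h, and 1 lower with iAb at 24 h (12.6%). In the time effect of the limma fit, an intensity trend gave 2 lower (7.72% of all genes) and no filter on low values 0 lower (3.75%). Without the sAb arrays 2 were higher and 0 lower, without the iAb arrays 0 lower, and without the sAb+LatA arrays 0 higher and 0 lower, with 1 residual degree of freedom each. The cause of these moves was not tested. Signal over background limits Srsf12, which lay near background throughout.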
